A study of Mus musculus with 6 samples.

Results

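The first-line antioxidant enzymes of blood stem and progenitor cells were followed through 10 genes: the superoxide dismutases *Sod1* and *Sod2*, the catalase gene *Cat*, the glutathione peroxidases *Gpx1*, *Gpx4* and *Gpx7*, and the glutaredoxins *Glrx*, *Glrx2*, *Glrx3* and *Glrx5*. They were taken by symbol, as every probe on the array that is not a control and carries one of these names, from the 37074 genes named there. Those names cover 16 of 56605 probes, and each gene had at least 1 probe bright enough to test, 14 probes in all. Expression was measured on single-colour Agilent arrays with 60-base probes in LSK cells (lineage marker negative, Sca1 positive and c-Kit positive), a bone marrow population of haematopoietic stem and early progenitor cells. Mice were C57BL/6 at postnatal day 6 to 8. Control mice were *Atg5w/w;VaviCre+*, and *Atg5f/f;Vav* mice were *Atg5f/f;VaviCre+*, so both groups carried the Cre recombinase driven by the pan-haematopoietic *Vav* promoter and differed in the floxed allele of *Atg5*, a gene needed to build autophagosomes. Each group had 3 samples. The labels do not say whether a sample was 1 mouse or a pool, so p-values measure only the spread between these samples.

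Superoxide, a by-product of respiration, is converted to hydrogen peroxide by SOD1 in the cytosol and SOD2 in the mitochondrial matrix. Catalase in peroxisomes and GPX1 in cytosol and mitochondria remove the peroxide, GPX4 reduces lipid peroxides within membranes, and GPX7 works in the endoplasmic reticulum. GLRX and GLRX2 undo the coupling of glutathione to protein thiols, whereas GLRX3 and GLRX5 are monothiol glutaredoxins that carry iron-sulfur clusters, GLRX5 in the mitochondrion, where erythroid haem synthesis depends on it. Haematopoietic stem cells lose function when reactive oxygen species accumulate, and autophagy is the route by which worn-out mitochondria are removed.

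Signals are log2 intensities minus the array's 75th percentile, so 0 is the 75th percentile, and they are compared between arrays for the same probe only. Between the groups, 4 of the 10 genes rose in *Atg5f/f;Vav* LSK cells (*Sod1*, *Gpx4*, *Glrx3* and *Glrx5*), 1 fell (*Gpx7*), and 5 did not pass the test (limma, Benjamini-Hochberg adjusted p under 0.05 over all probes tested). Of the 32066 probes tested, 17.3% were called higher and 17.1% lower. The log2 difference was positive for 8 genes and negative for 2, with a median of 0.44 against -0.06 over all probes, except that *Glrx* turned to -0.067 with the percentile taken over probes detected on all arrays and *Glrx2* to 0.44 with spike-in scaling. The 2 groups of arrays did not overlap for 8 of the 10 genes, against 55.4% of all probes. Without control 1 or without control 2, none of the 10 passed limma's adjusted threshold, and 6 had an unadjusted p under 0.05 in each case. The calls over all probes dropped to 326 and 250 in the same fits, while all 10 genes kept their direction. Counts at an unadjusted p, here and below, are given without limma's share over all probes. With the methods' t-test on all 6 arrays, 13539 of the 32066 probes had an unadjusted p under 0.05.

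**Figure D1:**
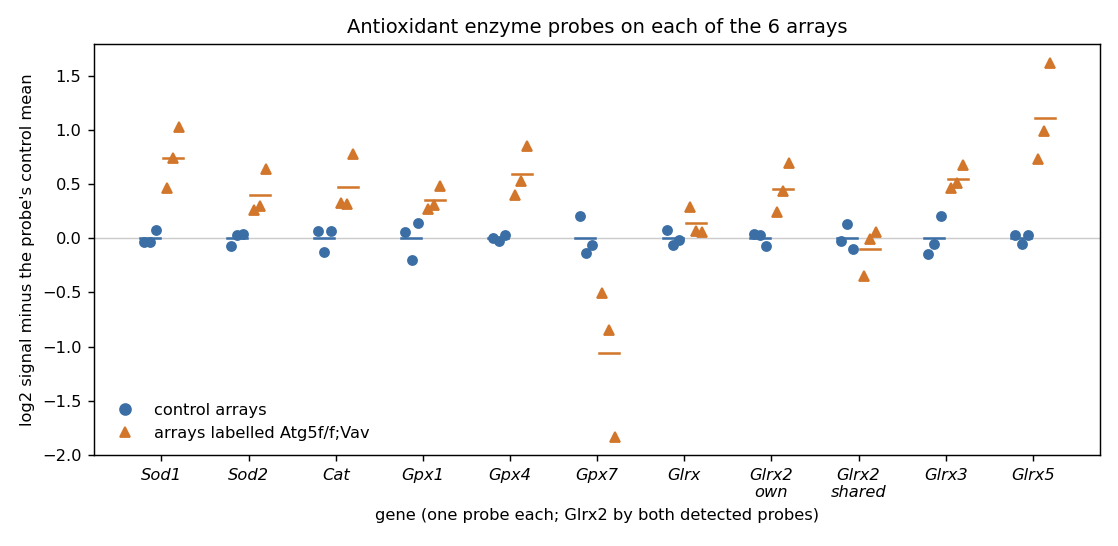
Log2 signal of each gene's probe on each array, minus the probe's own control mean (y axis), for 3 control arrays (blue circles) and 3 arrays labelled *Atg5f/f;Vav* (orange triangles). Short lines are group means. *Glrx2* appears with both of its detected probes. Every *Atg5f/f;Vav* array lies above all control arrays for *Sod1*, *Sod2*, *Cat*, *Gpx1*, *Gpx4*, *Glrx3* and *Glrx5* and below them for *Gpx7*.

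All 6 arrays came from 1 slide, with control arrays in row 1 and *Atg5f/f;Vav* arrays in row 2, and the effects of row and of genotype cannot be told apart. Probes well above background made up 57.6% to 58.1% on control arrays and 51.6% to 54.8% on *Atg5f/f;Vav* arrays. The *Atg5* probe was higher on the arrays labelled *Atg5f/f;Vav* (log2 1.46, 1.51 and 1.74, against 1.10, 0.93 and 1.06, adjusted p = 0.0209 with limma). Whether that probe lies in the deleted part was not determined, so the probe checks nothing and the directions given here rest on the labels. Both sorting markers were well above background on every array, *Kit* with a difference of -0.38 (adjusted p = 0.0563) and *Ly6a*, which encodes Sca1, with 1.57 (adjusted p = 0.00629, limma).

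The probe sequences decide how far 3 of the genes can be read, so they come before the values. *Gpx1* and *Gpx4* were read by probes that share no run of 20 bases or more with a probe of another gene on the array. *Glrx2* had both a probe of that kind, called its own probe here, and a brighter one that shares such runs with probes named for 16 other genes. By the rule that the brightest probe stands for a gene, the shared probe stood for *Glrx2*. Its central stretch, bases 19 to 48, recurs whole in 4 other probes and has the sequence of the B1 element, a short repeat scattered through mouse transcripts. The *Glrx3* probe ends in the stop codon, in capitals, and joins sequence on both sides of an intron. Sequences run 5′ to 3′.
Gpx1: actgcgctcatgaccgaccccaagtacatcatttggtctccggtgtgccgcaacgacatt
Gpx4: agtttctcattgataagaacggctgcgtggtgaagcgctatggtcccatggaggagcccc
Glrx2 own probe: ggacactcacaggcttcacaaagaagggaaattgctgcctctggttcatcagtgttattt
Glrx2 shared stretch: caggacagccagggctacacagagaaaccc
Glrx3: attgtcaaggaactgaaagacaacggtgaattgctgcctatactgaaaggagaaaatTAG

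*Sod1* rose and *Sod2* did not pass the test. The *Sod1* probe (NM_011434, chr16:90226497-90226556 on mm9) read 6.24, 6.24 and 6.35 in controls and 6.75, 7.02 and 7.31 in *Atg5f/f;Vav* cells. Each *Atg5f/f;Vav* array was above each control array, and the spread was wider among them (7.02 ± 0.28 against 6.28 ± 0.063, SD, n = 3). The difference of 0.74 (SE 0.158, 95% interval 0.37 to 1.12) is a 1.67-fold rise, with an adjusted p of 0.0188 in limma. This probe shares runs of 20 bases or more with 2 probes that carry other names, both of them called higher too, so signal from their transcripts on it cannot be separated. Averaged with the second *Sod1* probe, the difference was 0.48 and did not pass (adjusted p = 0.0788). That second probe (BC057074, chr16:90224181-90224240) read -0.67, -0.34 and -0.38 against -0.59, -0.33 and 0.19. Its groups overlapped, and its difference of 0.22 (95% interval -0.29 to 0.72) did not pass the test (adjusted p = 0.448, limma).

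The *Sod2* probe (chr17:13210864-13210923) read 0.67, 0.77 and 0.79 in controls and 1.01, 1.04 and 1.38 in *Atg5f/f;Vav* cells. These groups did not overlap, and *Atg5f/f;Vav* 3 was the highest array, as it was for *Sod1*. The difference was 0.40 (SE 0.134, interval 0.08 to 0.72) with an adjusted p of 0.0575 in limma. Within an array, the log2 ratio of *Sod2* to *Sod1* was -5.57, -5.47 and -5.57 in controls and -5.74, -5.98 and -5.92 in *Atg5f/f;Vav* cells. It was therefore lower on every *Atg5f/f;Vav* array, by 0.35 on average and by 0.18 with quantile normalisation, and both probes moved unequally. The exact permutation test gave p = 0.1, the smallest that 3 against 3 arrays allow (two-sided), and 0.25 after adjustment over the 5 ratios tested.

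Among the enzymes that remove hydrogen peroxide, neither *Cat* nor *Gpx1* passed the test. *Cat* (chr2:103294660-103294719, minus strand) read 1.27, 1.08 and 1.27 in controls and 1.54, 1.52 and 1.99 in *Atg5f/f;Vav* cells. All *Atg5f/f;Vav* values lay above the controls, with 1 array well above its group. The difference was 0.47 (SE 0.159, interval 0.10 to 0.85, adjusted p = 0.0565 in limma). *Gpx1* (chr9:108242276-108242335) read 6.66, 6.40 and 6.74 against 6.87, 6.90 and 7.09. Its groups were separated by 0.13 between the highest control and the lowest *Atg5f/f;Vav* array, the narrowest gap among the 8 genes without overlap. The difference was 0.35 (SE 0.133, interval 0.04 to 0.67, adjusted p = 0.0780 in limma). The *Cat* to *Gpx1* ratio changed by 0.12 with overlapping groups (exact permutation p = 0.4, adjusted 0.5).

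*Gpx4*, the membrane lipid peroxidase whose loss permits ferroptosis, rose. Its probe (chr10:79518691-79518842, across a splice junction) read 4.60, 4.57 and 4.62 in controls and 5.0, 5.13 and 5.44 in *Atg5f/f;Vav* cells. Control arrays lay within 0.06 of each other and every *Atg5f/f;Vav* array was above them. The difference of 0.59 (SE 0.139, interval 0.26 to 0.92) is 1.51-fold, with an adjusted p of 0.0226 in limma. It shrank to 0.23 with quantile normalisation (adjusted p = 0.144), and the call was also lost with no filter on dim probes (0.0588). The ratio of *Gpx4* to *Gpx1* was 0.24 higher, with overlapping groups (exact permutation p = 0.2, adjusted 0.333).

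*Gpx7* was the gene of the set that fell. Its probe (chr4:108073303-108073362, minus strand) read -2.25, -2.59 and -2.52 in controls and -2.95, -3.30 and -4.28 in *Atg5f/f;Vav* cells. All 3 *Atg5f/f;Vav* arrays were below the controls, and *Atg5f/f;Vav* 3, the highest array for *Sod1* and *Sod2*, was by far the lowest. The difference of -1.06 (SE 0.327, interval -1.84 to -0.28) is a 2.08-fold fall, with an adjusted p of 0.0451 in limma. The probe was dim but well above background on all 6 arrays, with intensities of 138, 108 and 130 against 114, 71.1 and 31.9 before scaling. The difference shrank to -0.59 with normexp background correction and to -0.52 with spike-in scaling, where the adjusted p was 0.391. It lost its call on leaving out any control array (adjusted p 0.0918 to 0.131) or *Atg5f/f;Vav* 2 (0.0675), as well as with quantile normalisation (0.106) and no filter on dim probes (0.0966). Without *Atg5f/f;Vav* 3 the difference was -0.67.

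**Figure D2:**
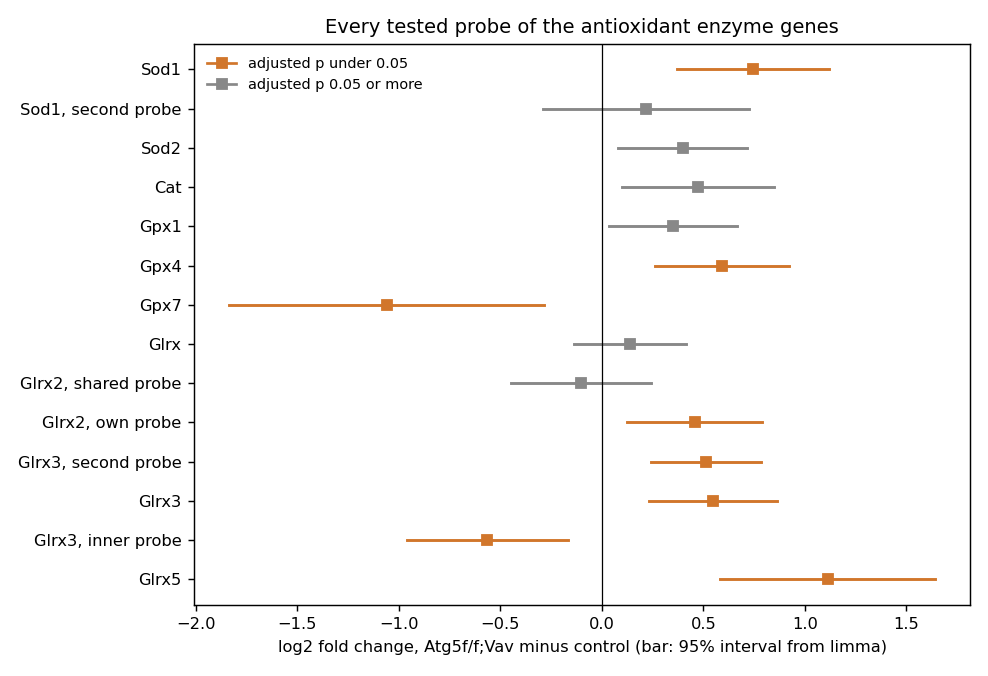
Log2 difference, *Atg5f/f;Vav* minus control (x axis), of all 14 tested probes of the 10 genes (rows), with limma's 95% intervals as bars. Orange marks adjusted p under 0.05, which 8 probes reached: 6 lie to the right of 0, and *Gpx7* and the inner *Glrx3* probe lie to the left.

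The dithiol glutaredoxins gave no call by their brightest probes. *Glrx* (chr13:75986983-75987042) read 0.51, 0.37 and 0.41 in controls and 0.72, 0.50 and 0.49 in *Atg5f/f;Vav* cells. The groups overlapped, with a difference of 0.14 (interval -0.14 to 0.41, adjusted p = 0.371 in limma). For *Glrx2* the shared probe (chr1:145596708-145596767) read 9.01, 9.17 and 8.94 against 8.69, 9.03 and 9.09. Those arrays overlapped too, and the difference was -0.10 (interval -0.45 to 0.24, adjusted p = 0.601 in limma). The median was -0.17 over the 16 probes with which it shares sequence and -0.06 over all probes. Of the 16, 1 was called lower and 0 higher, against 17.1% and 17.3% of all probes.

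The own probe of *Glrx2* (chr1:145593682-145593741) gave a different picture. It read 2.56, 2.55 and 2.45 in controls and 2.76, 2.96 and 3.21 in *Atg5f/f;Vav* cells. These groups did not overlap, and the difference was 0.46 (SE 0.140, interval 0.12 to 0.79, adjusted p = 0.0447 in limma), a 1.37-fold rise. With this probe in place of the shared one, a choice made after the values were seen, 5 of the 10 genes rose and the median difference was 0.46. The own probe's call was lost in 5 of the 6 fits that left out an array, the exception being without *Atg5f/f;Vav* 1 (adjusted p = 0.0294). It was also lost with quantile normalisation (0.21, adjusted p = 0.254), the percentile over probes detected on all arrays (0.25, 0.159), spike-in scaling (0.996, 0.0796), no filter on dim probes (0.105) and a replicate block (0.0779), so the count of 5 rests on this setting. The remaining 2 *Glrx2* probes were not well above background on any array.

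Both monothiol glutaredoxins rose, *Glrx5* by the largest rise among the 10 genes. *Glrx5* (chr12:106278828-106278887) read 3.40, 3.33 and 3.41 in controls and 4.11, 4.36 and 5.0 in *Atg5f/f;Vav* cells. The gap between the groups was 0.70 with a control SD of 0.046, and *Atg5f/f;Vav* 3 was again the highest array. The difference of 1.11 (SE 0.223, interval 0.58 to 1.64) is 2.16-fold, with an adjusted p of 0.0173 in limma.

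*Glrx3* was measured by 3 probes that did not move the same way. The junction probe shown above (chr7:144656182-144659666) read 4.32, 4.40 and 4.66 in controls and 4.92, 4.97 and 5.13 in *Atg5f/f;Vav* cells, without overlap. The difference was 0.55 (SE 0.133, adjusted p = 0.0241 in limma), and a second probe of the same transcript (chr7:144659806-144659865) gave 0.51 (adjusted p = 0.0205). The third probe was designed on the cDNA AK051468 and lies at chr7:144658475-144658534, inside the span that the junction probe skips 2293 bases from its first end and 1132 from its last. It read -2.12, -1.70 and -2.03 in controls and -2.77, -2.33 and -2.44 in *Atg5f/f;Vav* cells. It was thus lower on every *Atg5f/f;Vav* array (difference -0.56, SE 0.168, adjusted p = 0.0410 in limma), where both other probes were higher. That fall did not pass the threshold when any array was left out (adjusted p 0.0521 to 0.131). The junction probe's rise did not pass without control 1 (0.0945), without control 2 (0.0900) or without *Atg5f/f;Vav* 2 (0.0529). Averaging the probes gave 0.17 for *Glrx3* (adjusted p = 0.290). With quantile normalisation none of the 3 passed, the junction probe at 0.19 (adjusted p = 0.197), the second at 0.17 (0.209) and the third at -0.36 (0.123). Spike-in scaling also left none passing, at 1.09 (0.0540), 1.05 (0.0632) and -0.024 (0.974) in the same order. The same held with no filter on dim probes (adjusted p 0.0628, 0.0567 and 0.0945).

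**Figure D3:**
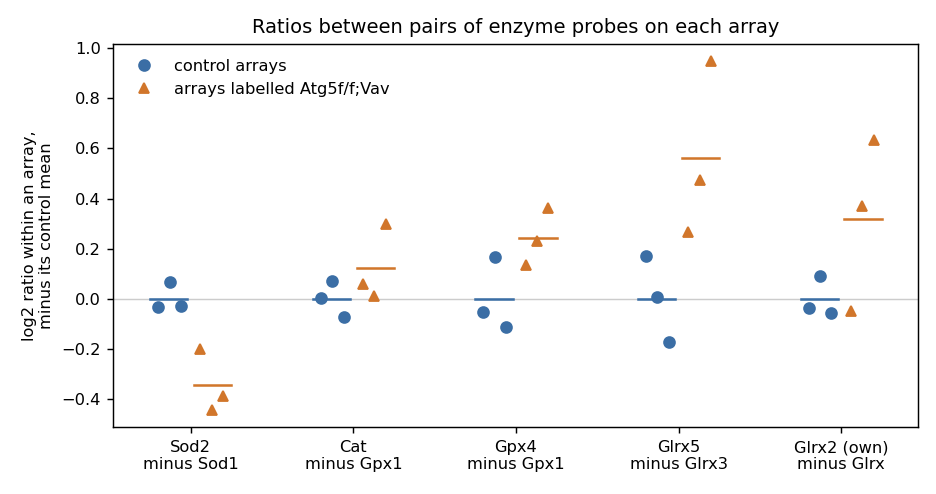
Log2 ratio of pairs of enzyme probes within each array, minus the ratio's control mean (y axis), for 3 control arrays (blue circles) and 3 arrays labelled *Atg5f/f;Vav* (orange triangles), with group means as lines. *Glrx2* is shown by its own probe. The groups are apart for *Sod2* to *Sod1*, lower by 0.35, and for *Glrx5* to *Glrx3*, higher by 0.56.

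Within arrays the log2 ratio of *Glrx5* to *Glrx3* was -0.91, -1.08 and -1.26 in controls and -0.81, -0.61 and -0.13 in *Atg5f/f;Vav* cells. It was higher on every *Atg5f/f;Vav* array, by 0.56 on average (exact permutation p = 0.1, adjusted 0.25), and by 0.37 without *Atg5f/f;Vav* 3. The ratio of *Glrx2* to *Glrx* changed by -0.24 with the shared probe (exact permutation p = 0.6, adjusted 0.6) and by 0.32 with the own probe (exact permutation p = 0.3), and both sets of values overlapped.

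The promoters were searched for TGANNNNGC, the core letters of the antioxidant response element to which Nrf2 binds, on both strands. In RefSeq sequence of GRCm38.p6, from 250 bases before to 50 after the transcription start, 41.3% of 32851 mouse promoters held it. All 10 genes were matched, with 17 promoters, and 3 of these held the letters: those of *Sod1* and *Glrx5* and 1 of the 4 of *Glrx2*. By gene, 3 of the 10 held it in at least 1 promoter, against 45.0% of 27025 genes. *Sod1* and *Glrx5* are shown because they are also the pair of called genes with the largest rises. The other genes called higher, *Gpx4* and *Glrx3*, had no match in any promoter. The match is in capitals and reads on the opposite strand in both.
Sod1, chr16:90220662-90220761, plus strand: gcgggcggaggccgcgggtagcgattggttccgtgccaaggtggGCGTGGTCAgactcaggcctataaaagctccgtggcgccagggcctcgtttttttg
Glrx5, chr12:105032418-105032517, plus strand: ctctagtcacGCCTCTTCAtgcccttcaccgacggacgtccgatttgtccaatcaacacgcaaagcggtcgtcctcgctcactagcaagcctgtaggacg

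The match lay at position -56 from the transcription start of *Sod1* and at -190 from that of *Glrx5*. A match is a description of letters in the window and says nothing of binding.

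Genes that work with these enzymes were described from lists of the same pathways. Of the 9 other family members on the array, *Sod3*, *Gpx3*, *Gpx5*, *Gpx6*, *Gpx8*, *Grxcr1* and *Grxcr2* were not well above background on any array. *Gpx2*, the epithelial glutathione peroxidase, fell (0.51, 0.53 and 0.32 against 0.01, -0.15 and -0.47, difference -0.65, adjusted p = 0.0217 in limma). *Ccs*, the chaperone that loads copper into SOD1, gave 0.30 and did not pass (adjusted p = 0.0983).

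The parallel thiol system moved upwards in most members. Of 13 peroxiredoxin and thioredoxin genes 8 rose and 1 fell, with a median difference of 0.55 (2 rose and 1 fell with quantile normalisation). Of all probes, 17.3% were called higher and 17.1% lower. *Srxn1*, which repairs over-oxidised peroxiredoxins, rose by 1.36 (adjusted p = 0.0297), and *Prdx6* by 0.91 (adjusted p = 0.0189, limma). *Txnip*, the thioredoxin inhibitor, fell by 0.54 (adjusted p = 0.0241), a difference that changed sign with spike-in scaling. Glutathione and NADPH supply, on which GPX and GLRX enzymes draw, had 6 of 9 tested genes higher and none lower (median 0.84, and 0 lower at an unadjusted p under 0.05 as well). These included *Gclm*, a subunit of the enzyme that limits glutathione synthesis (1.61, adjusted p = 0.0181), and *G6pdx*, the first enzyme of the pentose phosphate pathway (1.28, adjusted p = 0.0203).

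The cofactor pathways of the set were also measured. In iron-sulfur cluster assembly, where GLRX5 and GLRX3 act, 15 of 26 genes rose and 0 fell, with a median of 0.48 and 0 lower at an unadjusted p under 0.05. The largest rises were in *Nubp2*, a scaffold of the cytosolic pathway (1.12, adjusted p = 0.0149), and *Hspa9*, the mitochondrial chaperone that hands on clusters (0.88, adjusted p = 0.0166, limma). The lowest value of this list, -0.18 for *Ndor1* (adjusted p = 0.304, named after it was seen), came from 1 of the 16 probes that share sequence with the shared *Glrx2* probe. Of 7 genes for selenocysteine, the residue at the active site of GPX1, GPX2 and GPX4, 3 rose and 0 fell, with 4 higher and 0 lower at an unadjusted p under 0.05. The 3 were *Scly* (1.12), *Sephs2* (0.72) and *Eefsec* (0.44), the last named after its value was seen. Of 13 genes for import into peroxisomes, where catalase resides, 2 rose and 0 fell, with 4 higher and 0 lower at an unadjusted p under 0.05. The 2 that rose were *Pex16* (0.63) and *Pex26* (0.50), the median over the 13 was 0.28, and 2 of 13 is a share near the 17.3% of all probes called higher. The counts at an unadjusted p have no share over all probes beside them.

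Regulators of the enzymes went both ways, with 2 of 10 tested genes higher, 4 lower and a median of -0.02. The 2 of 10 is a share near the 17.3% of all probes called higher, and 17.1% were called lower. *Keap1*, which holds Nrf2 for degradation, rose by 0.51 (adjusted p = 0.0272), and the kinase gene *Atm* by 0.51 (adjusted p = 0.0470, limma). *Ppargc1a*, a coactivator of mitochondrial and antioxidant genes, was well above background on all control arrays and on none of the *Atg5f/f;Vav* arrays. It entered the fit only through the control arrays, so its place among the 4 lower genes rests on *Atg5f/f;Vav* values not well above background. It was at least 1.70-fold lower. Such a bound sets the control mean against the higher of the probe's own value and the dimmest signal still well above background on each *Atg5f/f;Vav* array. *Bach2* fell by 0.75 (adjusted p = 0.0462). *Foxo1* and *Foxo3*, transcription factors known to act on *Sod2* and *Cat* and named after their values were seen, fell by 0.63 and 0.57. Over these pathway lists together, 42 of 80 genes were called, 36 higher and 6 lower, against 17.3% higher and 17.1% lower of all probes. Without control 1 or without control 2 limma called 0 of the 80, with 43 and 40 at an unadjusted p under 0.05. These counts too have no share over all probes beside them.

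**Figure D4:**
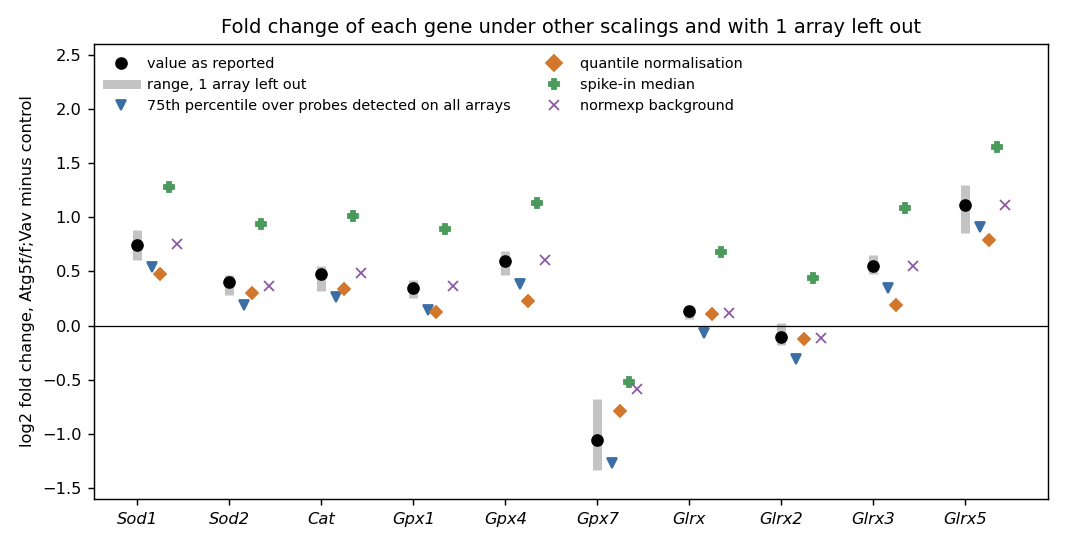
Log2 difference, *Atg5f/f;Vav* minus control (y axis), of each gene by its brightest probe as reported (black), the range over the 6 fits that each left out 1 array (grey bar), and the value under 4 other scalings or background corrections (symbols in the key). *Sod1*, *Sod2*, *Cat*, *Gpx1*, *Gpx4*, *Glrx3* and *Glrx5* stay above 0 throughout and *Gpx7* below 0, while *Glrx* and *Glrx2* cross it.

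Markers of other cells also differed between the groups, and in bulk LSK cells fewer cells of a type and less RNA per cell cannot be told apart. Summed levels are in multiples of the array's 75th percentile. The counts below stand against 17.3% of all probes called higher and 17.1% called lower. Of 15 erythroid markers 5 rose and 4 fell, and their summed level was 246 to 546 on control arrays and 108 to 201 on *Atg5f/f;Vav* arrays. The globin gene *Hba-a1* made up 85.7% to 88.7% of that sum in controls and 38.6% to 59.2% in *Atg5f/f;Vav* cells. Without it the sum was 35.0 to 68.1 against 44.2 to 123. The 5 that rose, *Klf1*, *Epor*, *Gata1*, *Car1* and *Rhag*, did so by 2.08 to 3.801. The 4 that fell, *Hbb-b1*, *Hba-a1*, *Alas2* and *Slc4a1*, had differences of -2.29 to -1.92. Both sets of genes were named after their values were seen. Primary granule genes rose in 3 of 4 (73.1 to 175 against 206 to 260), and late neutrophil genes fell in 7 of 8 (79.8 to 167 against 38.2 to 68.1). Of 6 tested macrophage markers 2 rose (19.98 to 22.9 against 28.8 to 32.5), and 3 of 5 stromal markers fell (9.64 to 39.6 against 5.37 to 8.54), with *Pdgfra* above background on no array. *Col1a1*, among the 3 that fell, was well above background on no *Atg5f/f;Vav* array, so it entered the fit only through the controls. Of 7 B cell markers 1 rose (9.22 to 12.1 against 10.5 to 17.2), and of 6 megakaryocyte markers 1 rose and 3 fell (7.56 to 9.07 against 6.40 to 6.79). Both shares that rose are near the 17.3% of all probes called higher, whereas 3 of 6 megakaryocyte markers lower is above the 17.1% called lower. *Ppbp*, among the 3 that fell, was well above background on no *Atg5f/f;Vav* array, so it too entered the fit only through the controls. *Cd79a*, the B cell marker that rose, was well above background on 1 control array and on all 3 *Atg5f/f;Vav* arrays. The *Atg5f/f;Vav* arrays alone thus met the filter for it. Of 9 LSK and stem cell markers 1 rose and 4 fell (162 to 170 against 91.8 to 159), with 1 higher and 6 lower at an unadjusted p under 0.05 in limma. None of 4 T and NK cell (2.44 to 3.25 against 2.41 to 2.88) or 5 mast cell and eosinophil markers (5.51 to 11.0 against 5.95 to 9.83) passed limma's adjusted threshold. At an unadjusted p under 0.05 there were 1 and 0, the 1 being *Klrb1c*, well above background on no *Atg5f/f;Vav* array. *Cd8a* and *Ncr1* were on no array well above background. The part of these cells in the enzyme values was not tested.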

How the data were processed

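Gene expression was measured in 6 samples of sorted LSK cells on single-colour arrays. Each of the authors' scanner files gives the intensity of every spot after background correction by Agilent Feature Extraction (version 12.0.3.1, per the submitters' processing notes), with no scaling between arrays. The deposited value table is a linear ratio, each intensity divided by a constant of its array, close to that array's 75th percentile over all spots. Probe positions are those of the array design on mm9.

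From the intensities, log2 signal minus each array's 75th percentile over spots that are not controls was computed (percentiles 620 to 881). Outlier spots, 64 to 81 per array, were left out, spots of 1 probe were averaged, and saturation was not seen on any array. A probe entered the fit if it was well above background on 3 or more arrays. Fits used limma 3.58.1 (R 4.3.3, lmFit then eBayes, two-sided tests), and p-values of the 32066 probes were adjusted together by Benjamini-Hochberg, with calls made under 0.05. A gene was represented by its probe with the highest mean signal. Arrays have no read depth, and their number limits the precision.

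The members, lists and tests were chosen with earlier results of these data known. All 10 genes are named with every probe, along with the 2 largest called rises and falls of each pathway list. Genes named beyond this rule are marked in the text as named after their values were seen. Of each marker list, counts and summed levels are given, and defining markers are named where not above background. Alternatives were normexp with offset 50, quantile normalisation, other scalings and filters, an intensity trend, the methods' t-test, a replicate block, averaging a gene's probes and leaving out each array. *Glrx2* by its own probe was added after seeing the data. The code was tested on simulated data. Protein sequences and exon annotation of mm9 were not used here.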

Additional observations from a re-analysis of the deposited data

How the results depend on the processing

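Correlations between arrays were 0.993 within controls, 0.982 to 0.992 within *Atg5f/f;Vav* and 0.952 to 0.985 between groups. The 4 rises became 7 with normexp or an intensity trend, 6 with the deposited values or a filter on all 6 arrays, 5 with the own probe of *Glrx2*, 3 with spike-in scaling, 2 with quantile normalisation, with no filter on dim probes or with the mean of all probes, and 0 to 4 on leaving out 1 array. The 1 fall became 0 with quantile normalisation, spike-in scaling or no filter, and was 0 to 1 on leaving out 1 array. The methods' t-test called 7 members at an unadjusted p under 0.05 and 0 in either direction after adjustment (13539 and 0 of all probes). The median difference of 0.44 moved to 0.21 with quantile normalisation and 0.98 with spike-in scaling. Over all probes the median was -0.27 with the percentile over probes detected on all arrays (3371 higher and 10086 lower, against 5540 and 5481) and 0.48 with spike-in scaling (3930 and 461). The members' median stood 0.50 above it as reported. Both scalings shift all probes of an array alike, so they cannot change that gap. With quantile normalisation, which can change it, the gap was 0.22. *Glrx* reversed to -0.067 with the percentile over probes detected on all arrays. *Glrx2* reversed to 0.44 with spike-in scaling and 0.18 with the mean of its probes, and ranged from -0.18 to 0.023 on leaving out 1 array. The *Glrx2* to *Glrx* ratio reversed to 0.32 with the own probe. The cause was not tested for any of these. Under normexp, quantile normalisation, both other scalings and the deposited values, 8 to 17 of 26 iron-sulfur assembly genes, 2 to 9 of 13 peroxiredoxin and thioredoxin genes and 4 to 6 of 9 glutathione and NADPH genes were called higher, the lowest count of the first 2 lists being that with quantile normalisation. Same-numbered samples deviated with correlations of -0.065, 0.19 and 0.11, and differently numbered samples with -0.30 to 0.13. With 3 samples in each group, these values cannot decide whether the numbers pair the samples. With a replicate block, 4 members were higher and 1 lower, and the own probe of *Glrx2* had an adjusted p of 0.0779. Spike-in scaling rests on 7 detected spike-ins.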
